A study of Mus musculus with 20 samples.

Results

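Undifferentiated and spindle cell carcinomas arising in the skin of mice whose stratified epithelia lack p53, with or without pRb, were compared with normal mouse skin. The samples were taken by their histology labels, 3 undifferentiated and 2 spindle cell carcinomas, and set against 5 samples of normal skin, which makes 10 of the 20 arrays of the series. The poorly differentiated carcinomas (6) served only to find where these tumors differ from other carcinomas of the same genotypes, and the mixed carcinomas (4) were left out. Each sample was total RNA on 1 Affymetrix MOE430 2.0 array.

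All mice were of FVB strain. Normal skin came from wild type mice of 2 months, while no age is labelled for any tumor, which means that the effects of age and of tumor growth cannot be told apart. The Trp53ΔEC mice carry k14Cre;p53loxP/loxP, and the RbΔEC; Trp53ΔEC mice carry k14Cre;p53loxP/loxP;pRbloxP/loxP. In both lines Cre is driven by the keratin 14 promoter, so the floxed alleles are deleted in the basal cells of stratified epithelia and in what descends from them, and not in stroma, vessels or blood cells. The 5 carcinomas are given below in a fixed order and by short names: Trp53ΔEC tumor 1 (T1, spindle cell carcinoma), Trp53ΔEC tumor 2 (T2, undifferentiated), and RbΔEC; Trp53ΔEC tumors 1 (R1, spindle cell carcinoma), 3 (R3, undifferentiated) and 5 (R5, undifferentiated). Every skin sample was wild type, so genotype and tumor state change together in each comparison with skin. The labels do not say that each tumor came from a different mouse, and the p-values measure only the spread between these samples.

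Keratinocytes are held in an epithelial state by transcription factors such as p63 and by cell junctions, and they carry keratin pairs that mark the layer they sit in: keratins 5 and 14 in the basal layer, keratins 1 and 10 above it, keratins 6, 16 and 17 where the epidermis is wounded or proliferating fast. A carcinoma whose cells become spindle shaped can give up these genes and take up those of mesenchymal cells, a change known as the epithelial to mesenchymal transition (EMT), in which Snail and ZEB proteins bind CACCTG, a form of the E-box, in promoters of epithelial genes. Whole skin also holds muscle, fat, hair follicles, sebaceous glands, nerves and immune cells. In such bulk RNA, fewer cells of a type and less RNA per cell cannot be told apart.

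Values are log2 signals as summarized by RMA, so 1 unit is a 2-fold difference, and they were compared only within a gene, never between genes. The table holds no detection calls, so a low value is not called absent. Differences, their standard errors (SE) and adjusted p-values come from limma over 18193 genes, and a gene was said to rise or fall where the adjusted p was under 0.05. The carcinomas rose above skin in 4677 genes (25.7% of those tested) and fell below it in 4276 (23.5%). In 3606 genes (19.8%) every carcinoma lay above every skin sample, and in 3307 (18.2%) every one lay below. Counts in the gene lists below are to be read against these shares. The largest falls were larger than the largest rises: 300 genes fell and 36 rose by at least 4 log2 units, and 73 fell and 2 rose by at least 6. The correlation across genes between arrays, a description with no test, was between 0.981 and 0.994 within skin, between 0.958 and 0.975 within the carcinomas and between 0.845 and 0.86 across the groups.

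The Actb signal of the 3′ end minus that of the 5′ end, which grows as RNA is degraded, was lower in the carcinomas (0.305 ± 0.053, SD, n = 5) than in skin (0.717 ± 0.275, n = 5), with an exact permutation p of 0.00794, the smallest that 5 against 5 allow. Skin RNA was thus measured with more 3′ bias than carcinoma RNA, and the part of this in the differences was not tested. Array medians ranged from 5.649 to 5.705 in the carcinomas and from 5.585 to 5.632 in skin.

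The first question was how far these tumors, named for their lack of epithelial differentiation, differed from skin in epithelial genes. Of 33 measured genes of basal keratinocyte and epithelial identity, 30 fell, none rose and 3 did not pass the test, with a median difference of -3.60 against 0.015 over all genes. All 30 genes that fell were below skin in every carcinoma. The desmosome and hemidesmosome list held 15 falls among 20 genes, and epidermal differentiation 26 falls among 29, with medians of -4.20 and -4.70. Among the epithelial genes that the study names for these tumors, 12 of 13 fell against skin. That list was chosen on these samples and is not independent evidence. The study names these genes from a comparison with poorly differentiated carcinomas, in which all 13 were lower here.

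Krt14, whose promoter drives Cre in both lines, had values of 13.34, 13.28, 13.05, 13.41 and 13.31 in skin and of 4.71, 11.38, 9.16, 5.18 and 4.43 in T1, T2, R1, R3 and R5. The carcinomas did not overlap with skin, and they were split among themselves: T2 and R1 kept much higher values than the other three. The mean difference was -6.30 (SE 1.19, adjusted p = 0.00109). Its basal partner Krt5 fell from 13.33, 13.34, 13.20, 13.55 and 13.25 to 5.10, 9.82, 9.04, 5.41 and 5.45, a difference of -6.37 (SE 0.87, adjusted p = 0.000106), with the same pair of tumors on top. Trp63, which encodes p63, the factor that sets up stratified epithelia, stood at 11.34, 11.20, 11.25, 11.15 and 11.09 in skin and at 3.78, 6.80, 6.27, 4.90 and 3.68 in the carcinomas. It differed by -6.12 (SE 0.55, adjusted p = 4.09e-06), a fold of 69.5. Krt15, a keratin of basal and follicle bulge keratinocytes, had the most even fall of the keratins named here, from 13.76, 13.78, 13.62, 13.97 and 13.63 to 5.52, 6.01, 6.43, 4.85 and 5.27, a difference of -8.14 (SE 0.25, adjusted p = 2.2e-09).

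Cdh1, which encodes E-cadherin, the adhesion molecule that joins epithelial cells, was measured at 11.27, 11.23, 11.29, 11.35 and 11.06 in skin and at 4.53, 7.16, 7.36, 6.20 and 6.45 in the carcinomas. The groups were far apart, and T1 was the lowest tumor. Its difference was -4.90 (SE 0.44, adjusted p = 3.91e-06), a fold of 29.8. Dsp encodes desmoplakin, which ties desmosomes to keratin filaments. The Dsp values were 13.27, 13.16, 13.50, 13.37 and 13.31 in skin and 6.17, 9.41, 9.13, 4.37 and 4.28 in the carcinomas, a difference of -6.65 (SE 0.95, adjusted p = 0.00015). The desmosomal cadherins fell with it: Dsg1a by 6.53 on the log2 scale and Dsc3 by 6.10. So did the plakophilins that link those cadherins to desmoplakin, Pkp1 by 5.33 and Pkp3 by 3.67, and Jup, plakoglobin, by 2.89. Dsc2 was the exception among the desmocollins, at 6.13 to 7.14 in skin and 3.76 to 6.59 in the carcinomas, with an adjusted p of 0.153. At the base of the epidermis, the hemidesmosome genes Col17a1 and Itgb4 fell by 6.34 and 2.72. Lama5, a laminin chain of the basement membrane, fell by only 0.75 (adjusted p = 0.000297). Of the claudins of tight junctions, Cldn1 fell by 4.11, Cldn8 by 3.42 and Cldn4 by 2.57.

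The differentiation genes of the upper epidermis fell further. Krt77, a keratin of the suprabasal epidermis and sweat ducts, was between 13.77 and 13.87 in skin and at 4.50, 5.15, 7.11, 5.12 and 4.71 in the carcinomas, a difference of -8.50 (SE 0.40, adjusted p = 3.55e-08). R1 was the highest tumor and was still far below any skin sample. Dmkn, dermokine, a secreted protein of the spinous layer, differed by -7.75, with tumor values of 8.69 in T2, 8.28 in R1 and 3.86 to 4.21 in the others. Krtdap, another secreted protein of differentiating keratinocytes, followed the same order, at 4.37, 9.37, 8.30, 4.29 and 4.38 against 13.67 to 13.86 in skin. Sbsn, suprabasin, differed by -6.67 and Csta1, a cystatin, by -5.83. In each of these 4 genes T2 and R1 were the highest tumors.

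T2 and R1 thus held more epithelial signal across several lists. The mean of the epithelial identity list was 5.08, 6.20, 6.12, 5.12 and 5.24 in T1, T2, R1, R3 and R5, against 9.111 to 9.478 in skin. The desmosome list showed it more strongly, at 6.10, 7.78, 7.15, 6.16 and 6.08, and epidermal differentiation at 4.67, 6.94, 6.53, 4.70 and 4.69. One of these tumors is undifferentiated and the other a spindle cell carcinoma, and they differ in genotype as well. Whether the signal comes from tumor cells or from keratinocytes in the piece of tissue was not tested. Without T1, 1 of the epidermal differentiation genes rose in place of none.

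**Figure D1:**
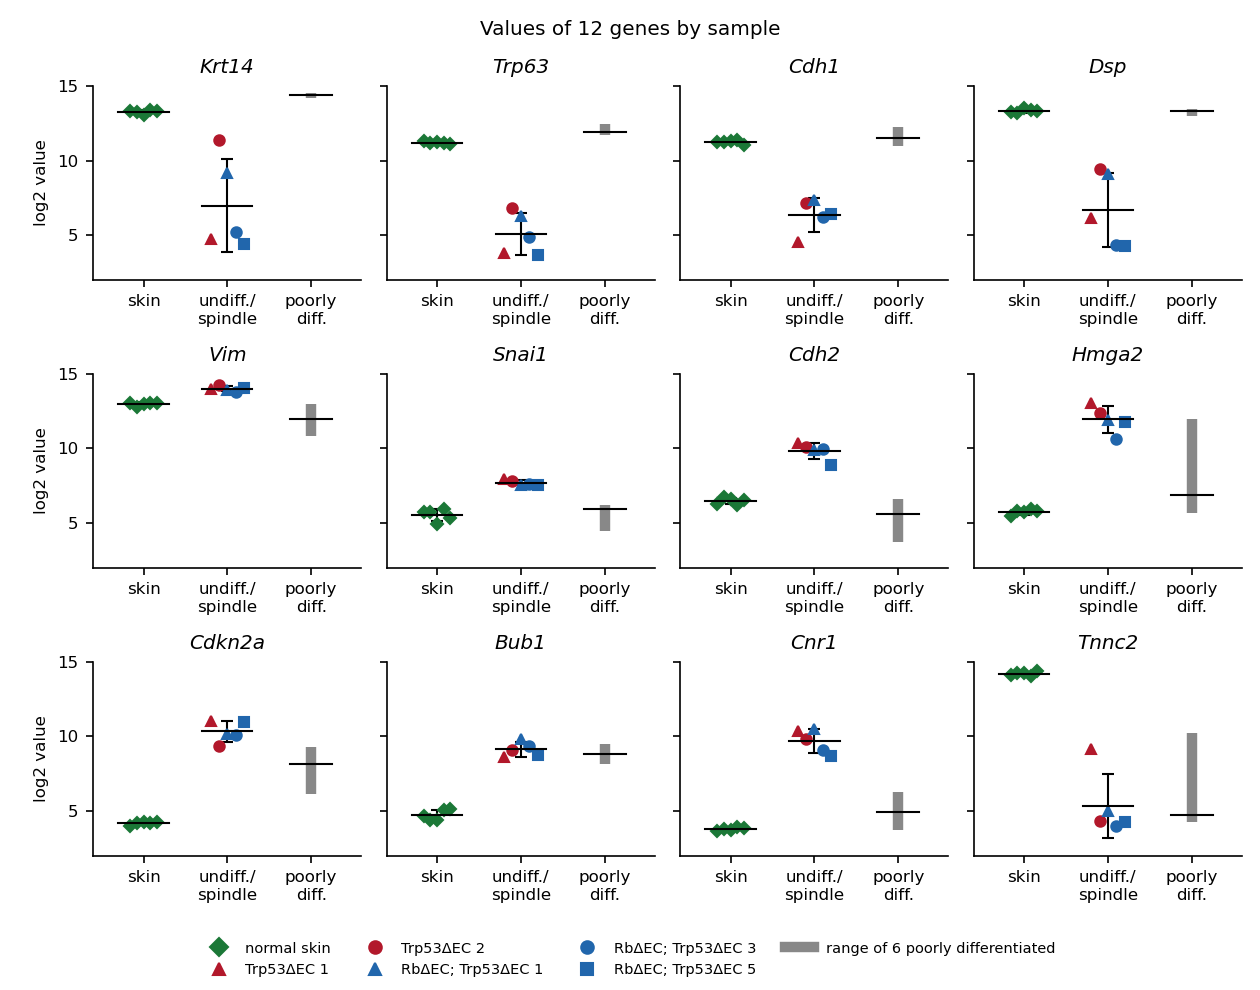
Log2 values of 12 genes in normal skin (diamonds, n = 5), in the 5 undifferentiated or spindle cell carcinomas (triangles for spindle cell, circles and the square for undifferentiated, red for Trp53ΔEC, blue for RbΔEC; Trp53ΔEC) and as the range of 6 poorly differentiated carcinomas (grey bar, line at the median). Black lines and bars in skin and in the 5 carcinomas are the mean and SD. In all 12 genes the 5 carcinomas and the skin samples do not overlap, and the spread among the carcinomas is wide for Krt14 (4.43 to 11.38) and narrow for Snai1 (7.53 to 7.98).

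Promoters were searched for CACCTG, on either strand, because Snail and ZEB proteins are known to bind it. The windows run from 250 bases before to 50 after a RefSeq start, in build GRCm38.p6. Of the 43 genes of the epithelial list and of the study's epithelial genes, 21 matched the table, with 26 windows. CACCTG was found in 16 of these windows (61.5%), in 20% of the 18109 windows of all genes tested that matched and in 2.86% of the windows of the mitosis list. The epithelial genes were chosen with earlier results of these data known. The study states that some of those it names can be repressed by Snai1, Zeb1 or Zeb2. The higher share in this set is therefore no independent evidence. The gene with a match that fell furthest was Dsp, and most of its window is shown here, with the match in capitals, read as CAGGTG on the gene's strand.
Dsp (chr13:38151044-38151323, plus strand): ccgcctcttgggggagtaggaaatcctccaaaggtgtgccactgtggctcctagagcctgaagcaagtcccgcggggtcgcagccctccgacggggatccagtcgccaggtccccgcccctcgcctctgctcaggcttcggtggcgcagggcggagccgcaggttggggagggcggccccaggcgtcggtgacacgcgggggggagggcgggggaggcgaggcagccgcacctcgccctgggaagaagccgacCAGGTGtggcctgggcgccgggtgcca

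Stretches of 30 bases around the match in 6 further genes that fell show how the letters beside the E-box differ from gene to gene. The genes are the basal keratin Krt5, the adhesion molecule Epcam, the checkpoint protein Sfn, the tight junction proteins Ocln and Marveld2, and the epidermal transcription factor Grhl3.
Krt5 (chr15:101713016-101713045, minus strand): cacaccactgtgCAGGTGtgctgggtgagc
Epcam (chr17:87635948-87635977, plus strand): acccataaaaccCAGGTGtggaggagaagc
Sfn (chr4:133602192-133602221, minus strand): tacatgagttctCACCTGaactgtcccagc
Ocln (chr13:100552549-100552578, minus strand): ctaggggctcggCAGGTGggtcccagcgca
Grhl3 (chr4:135573607-135573636, minus strand): agctgcagtcggCACCTGtgcttccagcca
Marveld2 (chr13:100616911-100616940, minus strand): ccggcggccgcgCAGGTGagtggggccgcg

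The genes with and without the match were set side by side, with no test. Of the 14 genes with CACCTG in a window, 12 fell and 2 did not pass the test, with a median difference of -3.55, and of the 7 without it 6 fell and 1 did not, with a median of -3.40. These are matches of letters in a short window, and binding was not measured.

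**Figure D2:**
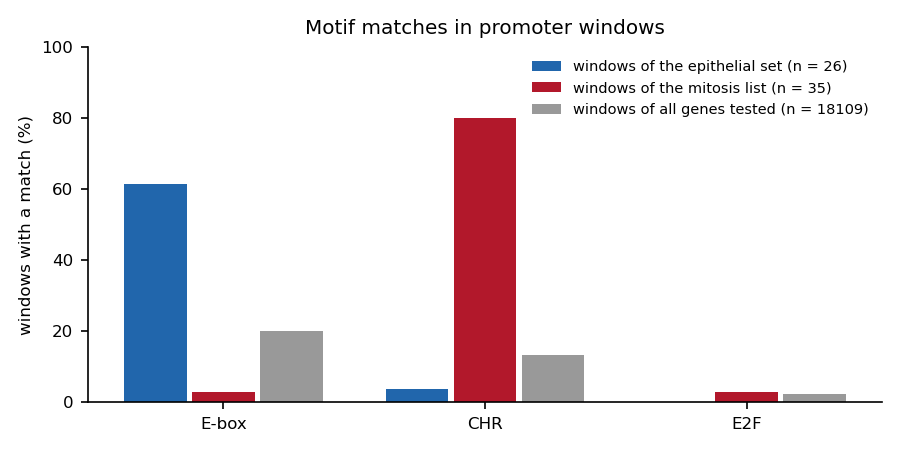
Share of promoter windows (250 bases before to 50 after the start) that hold a match on either strand: the E-box CACCTG, the CHR element TTTGAA, and the E2F letters TTTCCCGC or TTTGGCGC, in 26 windows of the epithelial set, 35 of the mitosis list and 18109 of all genes tested. The E-box is in 61.5% of epithelial windows and the CHR element in 80% of mitosis windows, against 20% and 13.4% of all windows.

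The genes of mesenchymal cells were the other side of the question. Whole skin holds dermal fibroblasts, which carry many of these genes. Of 24 fibroblast and mesenchymal genes 9 rose and 4 fell (median 0.453), and of 12 EMT transcription factors 5 rose and 2 fell (median 0.385). The number of EMT factors that rose was 3, not 5, where all 20 arrays were fitted together. Among the 9 EMT genes that the study names for these tumors, 5 rose and 1 fell against skin. That list was chosen on these samples and is no independent evidence. The study names these genes from a comparison with poorly differentiated carcinomas, not with skin. Against those carcinomas 6 of the 9 were higher here, none was lower and 3 did not pass the test.

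Vim, vimentin, the intermediate filament of mesenchymal cells, had values of 13.02, 12.78, 13.01, 13.02 and 13.05 in skin and of 13.98, 14.26, 13.94, 13.78 and 14.08 in the carcinomas. Every carcinoma was above every skin sample, and the rise was 1.03 (SE 0.11, adjusted p = 1.33e-05), a fold of 2.04. Snai1, which encodes Snail, was at 5.72, 5.75, 4.91, 5.92 and 5.33 in skin and rose to 7.98, 7.82, 7.58, 7.62 and 7.53. All 5 tumors were above every skin sample, with a difference of 2.18 from skin (SE 0.19, adjusted p = 2.83e-06). Zeb1 rose by 1.19 (SE 0.15, adjusted p = 5.23e-05), from 8.93 to 9.62 in skin to 10.12, 10.70, 10.43, 10.45 and 10.38. Its relative Zeb2 went the other way, at 10.04, 9.67, 10.64, 9.58 and 9.96 in skin and at 9.89, 8.95, 8.81, 8.62 and 9.31 in the carcinomas, a difference of -0.86 (adjusted p = 0.0167) in groups that overlapped. This fall rested on the probeset chosen for the gene: with the median of its probesets the difference was 0.02, and the call was lost as well where all 20 arrays were fitted together. Foxc2, a forkhead factor of mesoderm, rose by 2.74, and Foxc1 fell by 1.88. Adam19, a membrane protease, rose from 7.65 to 8.03 in skin to 10.60, 10.82, 10.64, 9.48 and 10.66, with R3 the lowest tumor.

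Cdh2, which encodes N-cadherin, was at 6.25, 6.76, 6.62, 6.23 and 6.57 in skin and at 10.35, 10.07, 9.92, 9.99 and 8.90 in the carcinomas. The rise was 3.36 (SE 0.24, adjusted p = 7.15e-07), 10.3-fold, and the lowest tumor was well above the highest skin sample. Crabp1, a retinoic acid binding protein of embryonic mesenchyme and dermal papilla, rose by 4.20, to 13.63, 12.84, 13.42, 11.11 and 12.59. Pi16 and Dpt (dermatopontin), known from fibroblasts of the normal dermis, fell by 4.49 and 2.49.

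**Figure D3:**
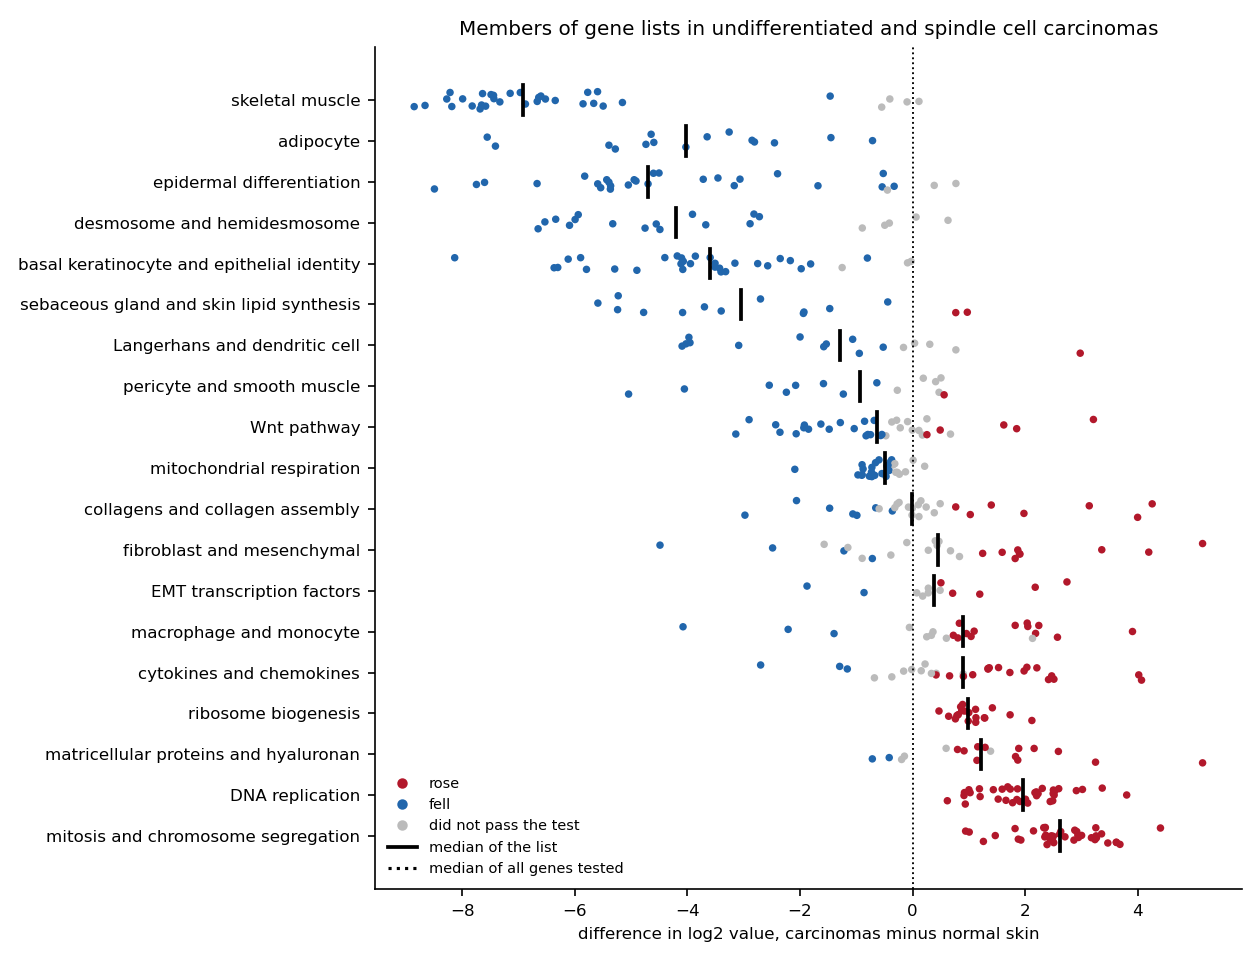
Difference in log2 value between the 5 carcinomas and the 5 skin samples (horizontal axis) for each member of 19 gene lists (1 point a gene, red where it rose, blue where it fell, grey where it did not pass the test), with the median of each list (black bar) and of all genes tested (dotted line, 0.015). List medians run from -6.93 for skeletal muscle to 2.61 for mitosis.

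Of the genes that make or cross-link collagen, 7 of 27 rose and 7 fell (median -0.005), so the list as a whole stood where all genes did. Within it, Col8a1, a short-chain collagen, rose by 4.26, and Plod2, an enzyme of collagen cross-linking, by 3.14, while Fmod, a small proteoglycan that binds collagen fibrils, fell by 2.98. Plod2 was uneven in skin, at 4.77 in skin sample 1 and 7.46 to 8.77 in the others. Matricellular proteins and hyaluronan genes rose in 12 of 18 cases and fell in 2 (median 1.22). Tnc, tenascin C, a matrix protein of wounds and tumor stroma, had skin values of 5.60, 6.93, 7.31, 8.32 and 7.33 and tumor values of 10.15, 12.74, 13.09, 12.29 and 13.01. T1 was the lowest tumor, above any skin sample, and the difference was 5.15 (SE 0.60, adjusted p = 3.17e-05). Ccn4, a matricellular Wnt target, rose by 3.25.

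Proteases and their inhibitors followed, with 14 of 27 genes up and 5 down (median 1.20). Timp1, an inhibitor of metalloproteases, rose from 6.67 to 7.51 in skin to 12.67, 11.48, 12.30, 11.79 and 12.89, a difference of 5.13 (SE 0.28, adjusted p = 8.05e-08). The collagenase gene Mmp13 was between 3.30 and 3.80 in skin and at 7.33, 8.01, 7.58, 8.20 and 11.20 in the carcinomas. R5 stood apart from the other 4, and the mean rise was 4.96 (SE 0.61, adjusted p = 4.57e-05). Mmp10 rose by 3.40 and Adam12 by 3.12, and Adamts5, an aggrecanase of dermis, fell by 2.32. In the basement membrane list 6 of 17 genes rose and 5 fell: Lamb1 and Nid2 rose by 2.72 and 1.81, and Lama2, the laminin chain of muscle and nerve, fell by 2.19. Of 17 integrins 4 rose and 6 fell. Itga5, the fibronectin receptor chain, rose by 2.76, to between 9.62 and 10.15, and Itga9, which binds tenascin, by 1.89.

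The next question was that of proliferation. All 39 mitosis genes and all 36 DNA replication genes rose, with medians of 2.61 and 1.96. All 39 mitosis genes were above skin in every carcinoma. Of 20 DNA repair genes 17 rose and none fell, and all 20 genes of the study's signature rose, a list chosen on these samples and therefore no independent evidence. With the median of a gene's probesets in place of the brightest probeset, 1 mitosis gene fell.

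Bub1, a kinase of the spindle checkpoint, stood at 4.66, 4.39, 4.42, 5.06 and 5.14 in skin and at 8.62, 9.10, 9.83, 9.38 and 8.75 in the carcinomas. Its rise was 4.41 (SE 0.24, adjusted p = 9.3e-08), 21.2-fold, with no overlap. Birc5, survivin, rose by 3.62, to 9.24, 10.97, 9.96, 10.05 and 10.08. Cep55, which acts in the last step of cytokinesis, rose by 3.69, and Ncapg, a condensin subunit, by 3.62. Aurka and Tpx2, a spindle kinase and its activator, both rose by 3.26. For DNA synthesis, the licensing factors Cdc6 and Cdt1 rose by 3.81 and 2.91, and Tk1, thymidine kinase, by 3.37. Chek1, the checkpoint kinase, and Brca1, a repair protein, rose by 3.24 and 3.09. Among the 5 tumors, the mitosis mean was 8.52, 9.21, 9.52, 9.54 and 8.84, so T1 and R5 were lowest and were still more than 1 log2 unit above the skin range of 6.357 to 6.628.

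Promoters of mitosis genes are known for the CHR element, TTTGAA, bound by the DREAM and MuvB complexes that switch these genes off in resting cells and on in G2 and mitosis. Of the 39 mitosis genes 33 matched the RefSeq table, with 35 windows. The letters TTTGAA, on either strand, were in 28 of these windows (80%), in 13.4% of all windows and in 3.85% of the epithelial windows. The E2F letters TTTCCCGC or TTTGGCGC were in 1 mitosis window (2.86%), beside 2.34% of all windows. The window of Cep55, whose rise was the largest among those with a match, is shown up to the CHR letters.
Cep55 (chr19:38054734-38055013, plus strand): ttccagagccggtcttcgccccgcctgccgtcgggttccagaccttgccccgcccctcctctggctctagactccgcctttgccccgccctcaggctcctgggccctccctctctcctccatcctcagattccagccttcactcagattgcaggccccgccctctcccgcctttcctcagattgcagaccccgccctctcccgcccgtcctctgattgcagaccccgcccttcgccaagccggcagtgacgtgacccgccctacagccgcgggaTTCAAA

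For other mitosis genes, all of which rose, the match nearest to the start is shown here for comparison. That choice favors positions close to the start, and in Kif2c, not shown, the match began at -103.
Ncapg (chr5:45669883-45669912, plus strand): ccgcgatagttgTTTGAAaactctggcgct
Racgap1 (chr15:99651634-99651663, minus strand): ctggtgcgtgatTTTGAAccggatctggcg
Aurka (chr2:172370521-172370550, minus strand): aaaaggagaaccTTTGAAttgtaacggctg
Cdk1 (chr10:69352910-69352939, minus strand): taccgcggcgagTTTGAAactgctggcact
Ccnb2 (chr9:70421533-70421562, minus strand): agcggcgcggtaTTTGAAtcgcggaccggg
Cenpa (chr5:30666890-30666919, plus strand): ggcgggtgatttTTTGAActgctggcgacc

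All 26 genes with the CHR letters rose, with a median of 2.56, and so did the 7 without them, with a median of 2.50, with no test of the difference.

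The regulators of G1 and the 2 deleted genes came next. Trp53 itself was not analysed here. Rb1, which encodes pRb, was at 8.95, 9.10, 9.26, 8.95 and 9.13 in skin and at 7.86, 7.93, 8.14, 8.03 and 8.02 in the carcinomas, a fall of 1.08 (SE 0.10, adjusted p = 4.27e-06). The RbΔEC; Trp53ΔEC tumors, in which the gene is floxed, did not lie below the Trp53ΔEC tumors, with a difference of 0.16 and an adjusted p of 0.774. The position of this probeset relative to the deleted exon was not looked up here, so the value does not check the genotype label. Among the poorly differentiated carcinomas, the Trp53ΔEC tumors had Rb1 at 8.839 and 8.333. The RbΔEC; Trp53ΔEC ones had it at 7.528, 7.154, 7.265 and 6.881, all lower than R1, R3 and R5. This split by genotype is described with no test, and its cause was not tested. Of 24 G1 cyclins, E2F factors and Cdk inhibitors 17 rose and 2 fell (median 1.36).

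Cdkn2a, the locus of p16INK4a and p19ARF, which restrain Cdk4 and Mdm2, was among the largest rises of the array. It stood at 4.01, 4.19, 4.23, 4.19 and 4.29 in skin and at 11.05, 9.38, 10.15, 10.11 and 10.96 in the carcinomas, a difference of 6.15 (SE 0.28, adjusted p = 2.46e-08), 70.8-fold. The neighboring inhibitor gene Cdkn2b rose by 3.36, Ccne2, cyclin E2, by 3.13 and E2f7, a repressing E2F, by 2.91, and Ccnd2, cyclin D2, fell by 1.60. Genes known as p53 targets did not move together: 5 of 24 rose and 10 fell (median -0.367), and 9 rose with the median of probesets. Cdkn1a, the p21 inhibitor, fell from 11.04 to 11.21 in skin to 9.20, 8.77, 9.94, 9.06 and 9.63, by 1.81 (SE 0.19, adjusted p = 1.61e-05). Trp53inp1, a p53-induced nuclear protein, fell by 2.60 to values that differed little among tumors, 8.52, 8.36, 8.47, 8.47 and 8.43. Perp, which is a desmosomal protein as well as a p53 target, fell by 5.90, and Ephx1, an epoxide hydrolase, by 3.14. Plk2, a kinase induced by stress, rose by 1.48.

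Genes known from embryonic or neural tissue were among the largest rises. Hmga2, an architectural chromatin protein of embryonic mesenchyme, was at 5.46, 5.78, 5.72, 5.93 and 5.80 in skin and at 13.07, 12.36, 11.94, 10.65 and 11.78 in the carcinomas. No gene rose more: the difference was 6.22 (SE 0.35, adjusted p = 1.2e-07), 74.7-fold. Cnr1, the cannabinoid receptor of neurons, rose by 5.90 (SE 0.31, adjusted p = 6.69e-08), from 3.63, 3.76, 3.75, 3.91 and 3.87 to 10.35, 9.84, 10.47, 9.07 and 8.70. The neurofilament genes Nefl and Nefm rose by 5.39 and 4.78, unevenly: Nefl was at 10.95, 8.58, 9.71, 6.64 and 8.71 in T1, T2, R1, R3 and R5, and Nefm at 9.77, 8.62, 9.92, 5.49 and 7.62, with R3 lowest in both. Gap43, a protein of growth cones, rose by 4.71, and here T1 was the lowest tumor at 7.67. As a list the neuronal-type genes were mixed, with 8 rises and 5 falls among 20 (median 0.306).

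Lhx8, a LIM homeobox factor of forebrain and jaw, rose by 4.89, to 9.86, 6.79, 9.64, 9.37 and 8.84. Sox11, a factor of neural and mesenchymal progenitors, rose by 4.08, and Tbx18, a T-box factor of mesenchyme, by 2.59. The list of developmental transcription factors held 5 rises and 4 falls among 27 (median -0.128), and the oncofetal and imprinted growth genes 6 and 6 among 22, so these rises were those of single genes. Gpc3, a glypican of the fetus, fell by 3.19, and Hoxa7 by 2.00. Further large rises were those of Xaf1, an interferon-induced partner of the apoptosis inhibitor XIAP (5.06), Slc14a1, a urea transporter (4.89), Sh2d5, an adaptor protein (4.84), and Pwwp3b (3.77), a gene of the PWWP domain family.

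The largest fall of the array was that of a muscle gene. Whole mouse skin includes a thin sheet of skeletal muscle beneath the fat, and of 34 muscle genes 30 fell and none rose, with a median of -6.93, the lowest of the 55 lists. Tnnc2, troponin C of fast fibers, had values of 14.13, 14.22, 14.23, 14.05 and 14.35 in skin and of 9.15, 4.33, 4.97, 4.02 and 4.23 in the carcinomas, a difference of -8.86 (SE 0.83, adjusted p = 5.7e-06), 463-fold. The fast myosin heavy chain Myh4 was at 9.13 in T1 and between 3.81 and 4.04 in the others, against 13.04 to 14.11 in skin. Tnnt3, Ttn, Myl1, Atp2a1, Mybpc2 and Pvalb, which encode troponin T, titin, a myosin light chain, a calcium pump, myosin binding protein C and parvalbumin, showed the same order, with T1 the highest tumor in each. The list mean was 7.07 in T1 and 5.07 to 5.19 in the other 4, against 11.285 to 12.033 in skin. Left out of the comparison, T1 changed neither the direction nor the call of any of these genes.

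In the list of embryonic muscle genes and myogenic regulators 8 of 17 genes fell and 2 rose (median -0.504), and its mean was 4.826 to 5.371 in the carcinomas and 5.498 to 5.903 in skin. Only 2 of these genes fell where dim genes were left out. Actc1, cardiac actin, which embryonic muscle also makes, fell by 2.43 from uneven skin values (5.16 to 10.40), a call lost by the methods' unequal-variance test. Eya1, a cofactor of homeobox proteins, fell by 2.04, or by 0.16 with no call where the median of its probesets was taken. Myf6, a myogenic factor of mature muscle, fell by 4.14, but Chrna1, a subunit of the muscle acetylcholine receptor, rose by 2.96 (SE 0.65, adjusted p = 0.00293), from 6.56 to 7.18 in skin to 11.75, 10.37, 11.03, 7.89 and 8.33. Six4, a homeobox factor upstream of myogenesis, rose by 2.02.

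Fat and glands gave the same picture. All 15 adipocyte genes fell (median -4.03). Adipoq, the hormone adiponectin, was between 12.08 and 12.76 in skin and at 8.09, 3.80, 4.95, 5.16 and 3.06 in the carcinomas, a difference of -7.41 (SE 0.74, adjusted p = 9.86e-06). T1 was highest here as well, as it was for Car3, a carbonic anhydrase of fat and muscle (10.77 against 3.88 to 7.23 in the other tumors), and for Cidec, a lipid droplet protein (5.99 against 3.94 to 4.07). In the sebaceous and skin lipid list 12 of 14 genes fell and 2 rose: Far2, a fatty acyl-CoA reductase of wax synthesis, fell by 5.59, Scd3, a desaturase of sebocytes, by 5.24 and Elovl4, an elongase of barrier lipids, by 5.23, while Fads1, a desaturase found in most cells, rose by 0.77. Dgat2, which makes triglycerides, fell evenly, by 4.78 (SE 0.14, adjusted p = 1.85e-09). Of 10 melanocyte genes 6 fell and 1 rose, and the pigment enzymes Dct and Tyrp1 fell by 3.78 and 1.82. Of 11 nerve and Schwann cell genes 8 fell, among them Mbp, a myelin protein, by 1.76, and Erbb3, a neuregulin receptor of glia and keratinocytes, by 4.63. Of 14 pericyte and smooth muscle genes 8 fell and 1 rose. Des, desmin, fell by 5.05 and Myh11, smooth muscle myosin, by 4.05.

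Follicle genes differed by tumor. Of 15 hair follicle stem cell genes 9 fell and 1 rose, and Lhx2, a factor of the bulge, fell by 4.72. The hair shaft and sheath list had 4 falls and 1 rise among 17 genes, and its mean was 7.66 in R1 against 4.69 to 4.86 in the other carcinomas and 5.232 to 5.637 in skin. Krt25, an inner root sheath keratin, was at 10.93 in R1 and between 3.80 and 4.65 in the other 4 tumors, and at 4.59 to 6.53 in skin. Without R1, 9 hair shaft genes fell in place of 4.

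**Figure D4:**
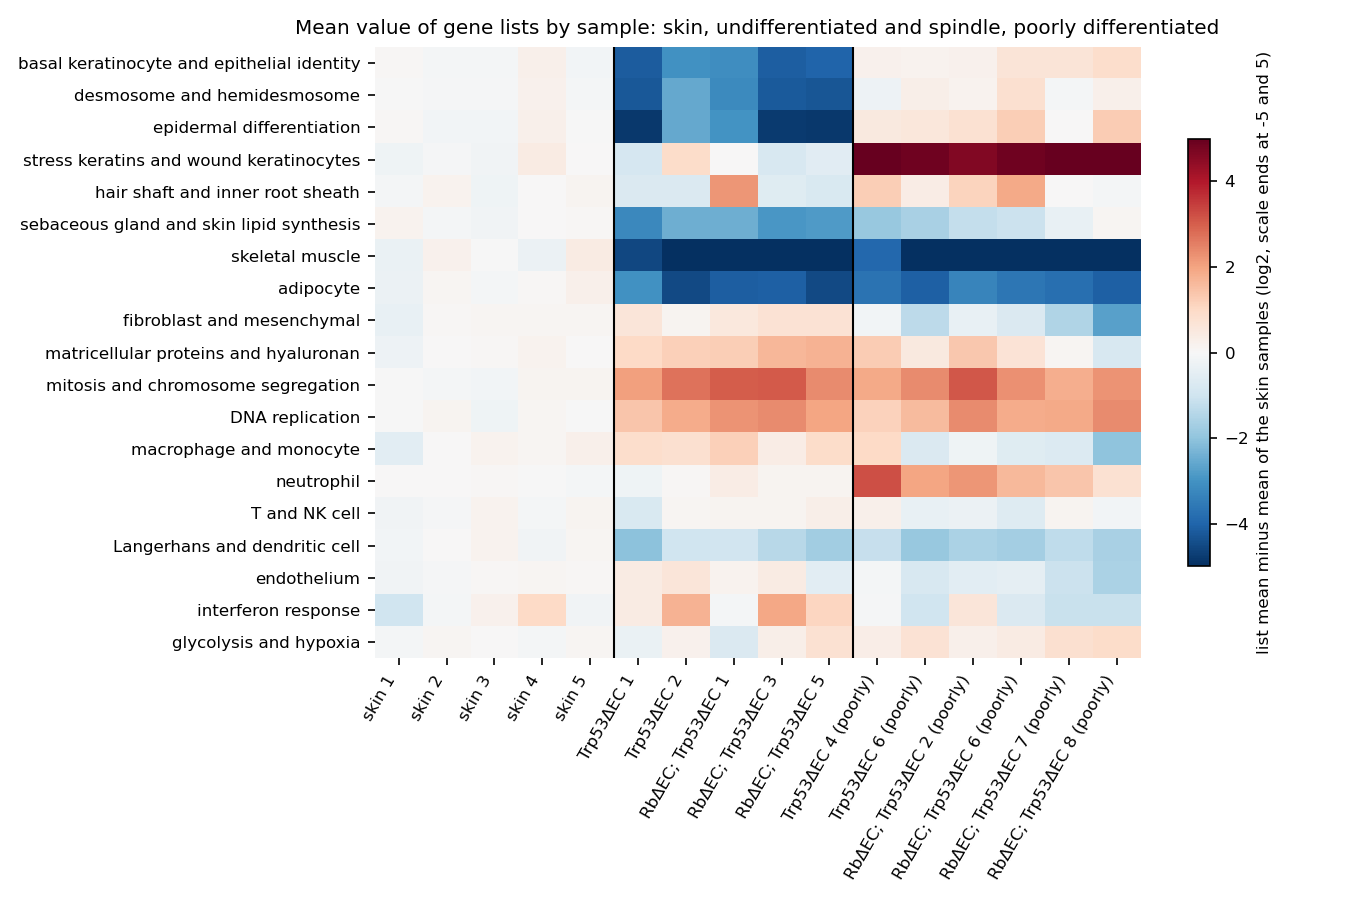
Mean log2 value of 19 gene lists in each sample minus the mean of the 5 skin samples (colour, scale ending at -5 and 5), for 5 skin samples, 5 undifferentiated or spindle cell carcinomas and 6 poorly differentiated carcinomas, separated by black lines. The epithelial identity, desmosome and epidermal differentiation rows are low in the middle block and near or above skin on the right. The stress keratin row is near skin in the middle block (5.329 to 7.061, skin 5.951 to 6.57) and high on the right. The muscle and fat rows are low in both kinds of carcinoma, and the mitosis and DNA replication rows are high in both.

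Immune cells were followed by their marker lists. Of 22 macrophage and monocyte genes 13 rose and 3 fell (median 0.894). Cx3cr1, the fractalkine receptor, was at 6.01, 5.69, 6.01, 5.96 and 5.92 in skin and at 9.79, 10.05, 9.57, 10.17 and 9.56 in the carcinomas. The groups were tight and far apart, and the rise was 3.91 (SE 0.14, adjusted p = 4.59e-09). Ms4a7, a membrane protein of tissue macrophages, rose by 2.58 and Trem2, a lipid receptor, by 2.24. Cd163, the hemoglobin scavenger receptor of resident macrophages, went down by 4.08 (adjusted p = 0.00464) and was uneven: T1, at 10.29, was close to skin (10.33 to 11.30), R1 was at 8.36, and the other 3 lay between 4.51 and 5.59.

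Langerhans and dendritic cell genes were lower, with 11 falls and 1 rise among 16 (median -1.30). H2-Eb1, a class II chain that presents antigen, was between 12.17 and 12.81 in skin and at 8.17, 7.32, 7.79, 9.77 and 8.86 in the carcinomas, a difference of -4.10 (SE 0.39, adjusted p = 6.44e-06). The lectins Clec10a, Cd209a and Mgl2 of dermal dendritic cells fell by 4.03, 3.97 and 3.95, and Ly75, the endocytic receptor DEC-205, was the gene that rose, by 2.98. Of 10 mast cell genes 4 fell and 1 rose (median -0.248), and the protease Mcpt4 fell by 2.61. The mean of the mast cell list was 6.822 in T1 and 6.657 in R1, within the skin range of 6.443 to 6.864. In T2, R3 and R5 it was 6.127, 5.269 and 5.299, and this split was not tested for the list. Of 19 T and NK cell genes 3 rose and 5 fell. Gzmb, a granzyme of killer cells, rose by 2.16, and Cd3g and Cd7, of T cells, fell by 1.51 and 1.70. T1 had the lowest mean of this list, 5.26 against 6.12 to 6.31 in the other tumors, and without it 5 genes rose in place of 3. In the remaining marker lists, 3 of 11 neutrophil genes rose and 1 fell. Of 9 B and plasma cell genes 1 rose and 1 fell, and of 5 red blood cell genes 1 rose. Of 14 genes of MHC class I antigen processing 2 rose and 2 fell. Over all genes 25.7% rose and 23.5% fell, and these small counts are not read as a result about the lists.

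Of the 29 genes in the list of cytokines and chemokines 17 rose and 3 fell (median 0.903). Ccl2, which attracts monocytes, rose from 6.30 to 7.48 in skin to 11.15, 10.93, 10.98, 10.10 and 10.79, by 4.02 (SE 0.24, adjusted p = 1.94e-07). Ptgs2, the cyclooxygenase of inflammation, rose by 4.07, and Cxcl14 and Il18, which the epidermis makes at rest, fell by 2.70 and 1.29. Of 17 interferon response genes 5 rose and none fell, skin itself being uneven, with list means from 6.665 to 8.658. Cxcl10 was at 5.86 to 8.07 in skin and at 7.89, 10.48, 8.59, 11.69 and 9.65 in the carcinomas, where T2 and R3 were highest. In the endothelial list 7 of 22 genes rose and 3 fell. Clec14a, an endothelial lectin, rose by 2.11 and Emcn, endomucin, by 1.68, and Tek, the angiopoietin receptor, fell by 1.45. R5 was the lowest tumor for the endothelial list (7.08 against 7.75 to 8.20), and without it 11 genes rose in place of 7.

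Genes that rose and genes that fell were found in every signalling list, as they were over all genes (25.7% and 23.5%). Of 34 Wnt genes 19 fell and 5 rose (median -0.625), with 12 falls where dim genes were left out. Rises numbered 3, not 5, without skin sample 1 or without R3. Dkk2, a secreted modulator of Wnt receptors, was at 6.96, 6.33, 8.70, 8.09 and 8.35 in skin and at 11.74, 10.37, 11.60, 10.62 and 10.17 in the carcinomas, a rise of 3.21 (SE 0.48, adjusted p = 0.000192). Wnt5a, a non-canonical ligand, rose by 1.85, while the secreted inhibitors Sfrp1 and Wif1 fell by 3.14 and 2.43 and the agonist Rspo1 by 2.90. Of 13 Hedgehog genes 5 fell and 1 rose. Of 19 Notch genes 3 rose and 5 fell, with 8 falls where arrays were centred on their medians. The keratinocyte ligand Jag2 and the target Nrarp fell by 1.64 and 1.99, and the vessel genes Notch4 and Dll4 rose by 2.15 and 1.61.

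The TGF-beta and BMP list held 10 rises and 9 falls among 29. Inhba, the activin A chain, rose by 3.20, from 5.90 to 6.32 in skin to 8.82, 9.18, 9.39, 8.96 and 10.15, and Grem1, a BMP antagonist, by 3.84, while Bmp7 fell by 1.87 and Acvr2a, an activin receptor, by 2.05. Of 32 growth factors and receptors 10 rose and 14 fell. Fgfr2, whose epithelial form receives signals from the dermis, fell by 3.37 (SE 0.19, adjusted p = 1.38e-07), from 9.67 to 10.14 in skin to 5.93, 6.89, 6.39, 7.01 and 6.32. Tgfa, a keratinocyte ligand of the EGF receptor, fell by 3.26, and Hbegf, another ligand of the same receptor, rose by 2.94. Hgf, a ligand usually made by mesenchymal cells, rose by 3.07.

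Several metabolic lists moved mostly in 1 direction. All 19 ribosome biogenesis genes rose (median 0.990), Nop58 and Nop56, of the box C/D ribonucleoprotein, by 2.12 and 1.73. Of 23 genes of amino acid, one-carbon and nucleotide metabolism 21 rose and 1 fell (median 1.26). Mthfd1l, of mitochondrial folate metabolism, rose by 3.44, to 9.34, 10.28, 9.24, 9.63 and 9.33, Phgdh, the first enzyme of serine synthesis, by 1.89 and Ctps, which makes CTP, by 1.88. The gene that fell was Slc1a5, a glutamine transporter, by 1.45. Of 29 mitochondrial respiration genes 21 fell and none rose, by less (median -0.488), for example Uqcrc2, of complex III, by 0.97. Skeletal muscle, which is rich in mitochondria, fell in the same comparison, and its part in this was not tested. Glycolysis and hypoxia genes were mixed, with 7 rises and 5 falls among 27: Vegfa and Pgam1 rose by 1.83 and 1.79, and Pfkm, the muscle form of phosphofructokinase, fell by 3.27. The mean of this list was 9.275 and 8.906 in the spindle cell carcinomas T1 and R1, below every skin sample (9.508 to 9.711), and 9.838, 9.905 and 10.359 in the undifferentiated T2, R3 and R5, above every one. With spindle cell carcinomas only, 4 of its genes rose and 13 fell against skin, and with undifferentiated carcinomas only 14 rose. That difference between the histologies was not tested for the list. Among chromatin genes, 10 of 20 Polycomb and DNA methylation genes rose and 5 fell. Hells and Uhrf1, which keep DNA methylated through replication, rose by 4.10 and 2.79, Dnmt1 by 1.60, and Cbx7, a Polycomb reader, fell by 1.77. Of 16 immediate early and heat shock genes 6 fell and 2 rose, and Hspb1, a small heat shock protein of keratinocytes and muscle, fell by 3.32. Of 8 housekeeping genes 5 rose and none fell, with a median of 0.301.

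The 5 carcinomas were then compared among themselves. Between the 2 spindle cell and the 3 undifferentiated carcinomas no gene passed limma's test (0% of 18193 genes, smallest adjusted p 0.349), although 617 genes were higher and 514 lower at an unadjusted p under 0.05. Between the 3 RbΔEC; Trp53ΔEC and the 2 Trp53ΔEC tumors none passed either (0%, smallest adjusted p 0.0633), with 620 higher and 867 lower unadjusted. By histology 13 genes were higher without R1 and 2 were higher and 1 lower with all 20 arrays in 1 fit, and by genotype 11 were lower without T2. Leaving out R1 or T2 leaves T1 as the only tumor of its class, so these fits compare a single tumor with the others and assume that it varies as they do. Numbers this small leave differences between these classes largely untested, and a missed threshold does not show that the classes were alike. By histology the smallest p-values included those of Angptl7, a secreted protein, at 11.02 and 9.82 in the spindle cell carcinomas T1 and R1 and at 6.80, 6.85 and 6.65 in T2, R3 and R5, and of Moxd1, a monooxygenase, at 6.08 and 6.81 against 9.61, 9.18 and 8.80. By genotype they included Shox2, a homeobox gene, at 5.80 and 5.78 in T1 and T2 and at 9.28, 9.81 and 9.88 in R1, R3 and R5, and Gbp2b, an interferon-induced GTPase, at 8.73 and 8.87 against 5.13, 5.60 and 5.18. Uchl1, a neuronal ubiquitin hydrolase, was at 6.83 and 6.69 in T1 and T2 and at 9.36, 8.71 and 8.76 in the others, all above skin (3.49 to 4.05), and Nptx1, a neuronal pentraxin, ran the opposite way, at 11.58 and 10.58 against 8.03, 7.40 and 7.80, also all above skin (4.17 to 4.79).

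Other genes set single tumors apart, as is described here with no test. The granzyme genes Gzmd, Gzme, Gzmf and Gzmg, of a gene cluster known from activated killer cells, were high in R1 and R5: Gzmd was at 5.70, 3.20, 10.30, 3.13 and 11.30 in T1, T2, R1, R3 and R5, and Gzmg at 4.41, 3.53, 10.11, 4.11 and 11.32. In skin Gzmd was between 2.57 and 2.69. Krt6b, a keratin of wounded epidermis, was at 11.82 in T2 and between 4.92 and 5.51 in the other carcinomas, which is near skin (4.72 to 5.43). Krt1, of the suprabasal epidermis, was at 11.42 in T2, at 8.94 in R1 and between 4.22 and 5.07 in the others. Dmp1, a matrix protein of bone and dentin, was at 10.68 in T1 and between 3.64 and 4.27 in the others. Rpl39l, a ribosomal protein gene best known from testis, was at 12.30 in T2 and 11.87 in R5, above skin (9.45 to 9.82), and at 5.67, 7.56 and 6.17 in T1, R1 and R3, below it.

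**Figure D5:**
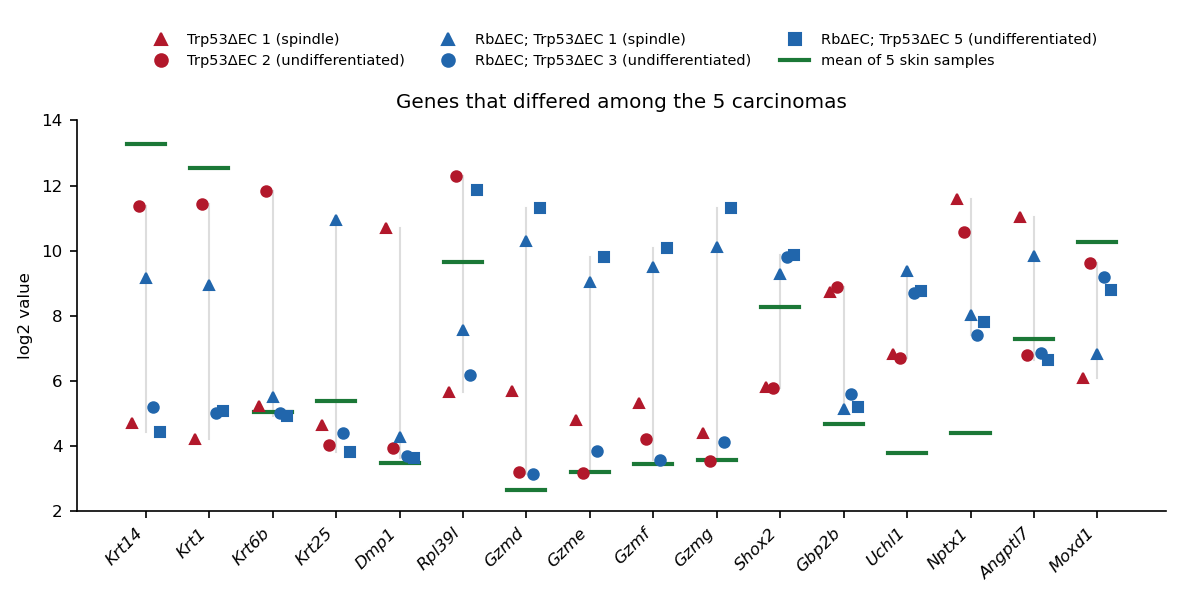
Log2 values of 16 genes in the 5 carcinomas (triangles for spindle cell, circles and the square for undifferentiated, red for Trp53ΔEC, blue for RbΔEC; Trp53ΔEC), with the mean of the 5 skin samples (green line) and the range of the carcinomas (grey line). R1 and R5 are high for the 4 granzyme genes, T2 for Krt6b (11.82) and T1 for Dmp1 (10.68).

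Against the 6 poorly differentiated carcinomas of the same genotypes, the undifferentiated and spindle cell carcinomas were higher in 2304 genes (12.7% of those tested) and lower in 1802 (9.9%). They lay above every poorly differentiated tumor in 1351 genes (7.43%) and below every one in 1254 (6.89%). Both kinds of tumor are set against the same skin. Values of the poorly differentiated tumors are given below for some genes, and for the others only the difference is given.

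Epithelial genes were lower in these carcinomas than in poorly differentiated ones. Of the 33 epithelial identity genes 32 were lower than in poorly differentiated carcinomas and none higher. Krt14 was between 14.18 and 14.56 in the poorly differentiated tumors, above its skin range, so the 2 kinds of tumor lay on opposite sides of skin. Their difference was -7.38 (adjusted p = 0.000703), and for Krt17, a keratin of fast-growing epithelium, -7.73 (adjusted p = 2.95e-05). Among stress keratins and wound genes, known for their rise in injured epidermis, it was so as well, with 14 of 17 lower, none higher and a median of -6.21, while against skin 6 of them fell, 3 rose and the median was -0.157 (3 falls and no rise where all 20 arrays were fitted together). Sprr2f, a cornified envelope protein, was between 9.83 and 12.55 in poorly differentiated tumors, between 3.13 and 3.85 in these carcinomas and between 4.13 and 4.41 in skin. Defb3, an antimicrobial defensin, had the largest difference from poorly differentiated tumors, -8.24 (adjusted p = 5.58e-07), and lay between 3.47 and 3.81, against 3.90 to 4.14 in skin. S100a9, a calprotectin chain of neutrophils and inflamed keratinocytes, rose over skin by 1.91, a call lost with all 20 arrays in 1 fit, and was 6.76 lower than in poorly differentiated tumors. Csta1 and Fgfbp1, which releases FGF from matrix, differed by -7.54 and -7.19.

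In the other direction, Dkk2 was 5.90 higher than in poorly differentiated tumors (adjusted p = 1.25e-06), where it was between 4.26 and 5.95 and thus below skin. Nefl, Cnr1, Cdh2 and Nefm were higher by 4.94, 4.78, 4.63 and 4.52, Pwwp3b by 4.38, Chrna1 by 4.37 and Hmga2 by 4.21. Hmga2 varied among the poorly differentiated tumors, from 5.65 to 11.99. Its call was lost where the undifferentiated and spindle cell group, but not the poorly differentiated one, was narrowed to 1 genotype or 1 histology. Cdkn2a was higher by 2.52 (adjusted p = 0.0143), and that call was lost with Trp53ΔEC, with spindle cell or with undifferentiated carcinomas only. Zeb1, Vim and Snai1 were higher by 3.09, 2.09 and 1.99, and all 3 were above skin in every carcinoma. Poorly differentiated tumors had Zeb1 at 6.57 to 8.32 and Vim at 10.85 to 12.97, below the lowest undifferentiated or spindle cell value. Of the 22 macrophage genes 11 were higher, Cx3cr1 by 3.61 among them, and 1 was lower. The means of that list overlapped, at 9.654 to 10.457 here and 7.273 to 10.283 in poorly differentiated tumors. Of 11 neutrophil genes 6 were lower and none higher. In the list of cytokines and chemokines 15 of 29 genes were lower and 4 higher (median -1.056). Cdkn1a was lower by 2.04 (adjusted p = 0.00117) and Mmp13 by 3.33.

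Few genes of mitosis, DNA replication, muscle and fat passed this test. Of 39 mitosis genes 1 was higher than in poorly differentiated tumors and none lower, and of 36 DNA replication genes none passed the test in either direction. Of the 24 G1 cyclins, E2F factors and Cdk inhibitors, however, 7 were higher and 1 lower, Cdkn2b by 1.79 in the first direction. Of 34 skeletal muscle genes 1 was lower and none higher, and of 15 adipocyte genes 1 was lower. A test that was not passed leaves a difference possible: the mitosis means ran from 8.52 to 9.54 in these carcinomas and from 8.305 to 9.602 in poorly differentiated ones.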

How the data were processed

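The arrays held total RNA extracted with a fibrous tissue kit, checked on a Bioanalyzer and labelled with biotin. The authors deposited log2 values from RMA, which corrects the background, normalizes all arrays together and summarizes probes into probesets. No source used here states its version. Because the normalization is shared, a change in total RNA per cell cannot be seen. The table held 45101 probesets in 20 samples and every column was matched to a labelled sample. The number of arrays, not counting depth, limits the precision.

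The 64 control probesets were left out. Of the rest, 34945 were annotated with 1 symbol, 932 with several and 9160 with none. Each gene was read from its brightest probeset (mean of the 20 arrays), which left 18193 genes. Samples were grouped by the histology in their labels. Each comparison used limma 3.58.1 in R 4.3.3 (lmFit and eBayes on the arrays compared, two-sided, Benjamini-Hochberg adjustment over all genes, threshold 0.05). Counts of list members were set beside those over all genes. The 3′ minus 5′ signals were compared by an exact permutation test, two-sided. Tables, permutations and figures were made with pandas 2.3.3, numpy 2.4.6 and matplotlib 3.10.9, in Python 3.11.15.

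The samples compared, the 55 gene lists (1086 entries found in the table, 62 not), the tests and the rule for named genes were chosen with earlier results of these data known, so no pattern here is independent support for those results. The genes named were the 12 largest rises and 12 largest falls without overlap, up to 4 members of each list by size of the difference and up to 2 in the rarer direction, the genes the study names, the 8 largest differences each way from poorly differentiated carcinomas, and among the 5 carcinomas the 10 with the largest SD and the 5 smallest p each way by histology and by genotype. For promoters the genes were members of 3 lists that held a match. Not every gene the rule allows was described, and those whose direction depended on the settings were mostly passed over. Promoter sequences are those of RefSeq, build GRCm38.p6, which held 14452 of the 18193 genes. The alternatives were other array scalings, other probesets of a gene, a filter on dim genes (mean under 6), an intensity trend with robust variance, the methods' unequal-variance test, all arrays in 1 fit, a stricter call, 1 genotype or 1 histology only, the number in the title as a block, and leaving out each sample.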

Additional observations from a re-analysis of the deposited data

Results flagged for a closer look

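In groups of 5 samples, a value was set apart when its gap to the nearest other sample was more than 0.71 of the whole range of the group. Chance sets apart about 1 in 20 groups, and here 45 of 484 groups (9.30%) had such a value. The genes include some chosen for a large SD among the carcinomas and many muscle genes that vary together, so that share cannot be read against the chance rate. T1 gave 15 of them, R3 and R5 gave 4 each, R1 gave 3 and T2 gave 1. Among the skin samples, sample 1 gave 7, samples 2 and 4 gave 5 each and sample 3 gave 1.

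T1, a spindle cell carcinoma, was the highest of the 5 carcinomas for muscle genes: Tnnc2 at 9.15, Myh4 at 9.13, Myl1 at 8.92, Tnnt3 at 8.52, Atp2a1 at 8.20, Pvalb at 8.13, Mybpc2 at 7.67 and Ttn at 7.28, and the mean of the muscle list was 7.07. It was also highest for the fat gene Cidec at 5.99 for Eya1 at 6.03 and for Dmp1, of bone matrix, at 10.68, and lowest for Tnc at 10.15, for Gap43 at 7.67 and for the T and NK cell list at 5.26. These genes were not tested for a common source.

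R1, the other spindle cell carcinoma, was high for the sheath keratin Krt25 at 10.93, for Krt77 at 7.11 and for the hair shaft list at 7.66, and T2 was high for Krt6b at 11.82. R5 was high for Mmp13 at 11.20 and for the melanocyte list at 5.09, and low for the vessel genes Clec14a at 6.73 and Tek at 5.58. R3 was low for Adam19 at 9.48 and high for Fmod at 8.14, for the Polycomb and DNA methylation list at 8.07 and for the red blood cell list at 5.52.

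In skin, sample 1 was low for Lamb1 at 8.50, Il18 at 9.22, the fibroblast list at 9.95 and the basement membrane list at 8.43, and high for Gap43 at 5.90, Ccn4 at 6.79 and Fgfbp1 at 10.35. Sample 2 was high for Myf6 at 9.21 and Ly75 at 4.17, low for Vim at 12.78 and Cx3cr1 at 5.69, and had the highest Actb 3′ minus 5′ signal, 1.19. Sample 4 was high for the keratinocyte genes Itgb4 at 9.35, Sbsn at 14.08 and Hspb1 at 14.02, for Nefm at 3.73 and for the desmosome list at 10.55. Sample 3 was low for the mast cell list at 6.44.

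Undifferentiated and spindle cell carcinomas differed from poorly differentiated ones in 4106 genes by limma, so that the difference from skin was not the same for both kinds of tumor in these genes.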

How the results depend on the processing

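Against skin, the counts of 4677 higher and 4276 lower genes ran from 4236 to 4592 and from 3934 to 4237 without 1 sample, were 4135 and 4943 with arrays centred on their medians, and were 4155 and 3848 by the methods' unequal-variance test. They were 1954 and 2026 for a log2 difference of at least 1, and 11869 and 8204 probesets when each probeset was counted. Against poorly differentiated carcinomas the counts of 2304 and 1802 became 1184 and 895 with Trp53ΔEC tumors only, 1148 and 882 with spindle cell carcinomas only, 1185 and 1144 for a log2 difference of at least 1, and 4525 and 3149 over probesets. With 1 genotype or 1 histology fewer samples were compared, which by itself lowers such counts. Only the undifferentiated and spindle cell group was narrowed, and all 6 poorly differentiated tumors, of both genotypes, stayed. With 1 genotype, grade and genotype therefore changed in part together. By histology the count higher in spindle cell carcinomas ranged from 0 to 13 without 1 sample (13 without R1) and was 2, with 1 lower, in a fit of all 20 arrays. By genotype the count lower in RbΔEC; Trp53ΔEC tumors ranged from 0 to 11 (11 without T2). Both fits compare T1, alone in its class, with the others and assume that it varies as they do. By genotype 1 gene was higher and 1 lower without dim genes or with a trend and robust variance. The cause of these changes was not tested. With the number in the title as a replicate block, 3986 genes were higher and 3638 lower than skin, and 28 higher and 74 lower than poorly differentiated carcinomas. Deviations of same-numbered skin and tumor samples correlated between -0.043 and 0.03, so the numbers were taken as names. These carcinomas and the poorly differentiated ones share 1 number only, so that the blocked difference rests on T2 and RbΔEC; Trp53ΔEC tumor 2 and says little of the other samples. Of the genes whose difference from skin is given, Zeb2 changed direction, to 0.02 with the median of its probesets. Genes whose direction depended on the settings were mostly not given, so this says little of how stable directions were among other genes. In a fit of all 20 arrays the collagen list had 3 falls, not 7, and the nerve list 5, not 8. With the median of probesets the neuronal-type list had 2 falls, not 5, and the Polycomb list 2, not 5. The interferon list had 12 rises, not 5, under the block, the macrophage list 1 fall, not 3, by the unequal-variance test, and the melanocyte list 3 falls, not 6, without dim genes. Genes near the lower end of the signal range have differences that the array compresses, so their folds are likely too small.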
